A study of Mus musculus with 16 samples.

Results

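The genes described here encode the machinery that copies chromosomal DNA in S phase, together with the enzymes that supply its deoxynucleotides, the factors that rebuild chromatin behind the fork and members of the E2F family that act on these genes. The list named 38 genes with these functions, and it was chosen with earlier results of these data known. A probe set that belongs to a single gene was present for 37 of them, out of 22180 genes measured. The remaining gene, Rfc4, shared its probe set with Eif4a2 and was left out. Of the 37, Pole, Rpa1, Fen1 and Rrm2 had more than 1 probe set, and the brightest was used.

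The cells were CD8 T cells sorted from the spleens of female mice of a strain that the labels write as C56BL/6. All mice were bone marrow chimeras that had been transplanted with leukaemia cells from Eµ-TCL1 mice, a model of chronic lymphocytic leukaemia (CLL) in which a TCL1 transgene is driven in B cells, so every group, controls included, carried the leukaemia. The donor marrow was wild type (WT) or lacked Il4i1 (KO), a gene for a secreted amino acid oxidase. Sorting followed 5 weeks after the leukaemia transplant, and gave effector cells (CD44+ CD127-) and memory cells (CD44 high CD127 high). The 4 groups, effector WT, effector KO, memory WT and memory KO, held 4 arrays each. The labels do not state the age of the mice, the share of host blood cells left in the chimeras or whether each sample of a group came from its own animal. The p-values therefore rest on the spread among these samples, which may be technical. Arrays are named by group and replicate number.

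Replication begins when a ring of 6 related proteins, Mcm2 to Mcm7, is loaded on origins by Cdc6 and Cdt1 together with the origin recognition complex. In S phase the ring is joined by Cdc45 and the GINS complex and becomes the moving helicase. Primase and DNA polymerase alpha then lay down short primers, the replication factor C complex loads the sliding clamp Pcna, and the replicative polymerases extend the strands. Most of these genes are targets of E2F transcription factors and are switched on as a cell passes from G1 into S phase. Resting T cells keep them low, and T cells that have met antigen and divide express them together with the genes of mitosis. In RNA from a pool of cells, fewer cells in cycle and less RNA per cycling cell cannot be told apart.

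Values are log2 expression, and differences are log2 differences from limma, called at an adjusted p under 0.05 over all genes. The deposited values had array medians between 4.12 and 4.22. Every member read above its array's median on all 16 arrays. Array effector KO 4 correlated with the other arrays at 0.965 to 0.974 over genes, and all other pairs at 0.971 to 0.994. The probe set of Il4i1 is shared with Nup62 and Il4i1b, so the targeted gene could not check the genotype labels. The sort was visible in Il7r, which encodes CD127 and fell by 6.03 in effector against memory cells, with an adjusted p of 4.29e-12, and in Cd44, which fell by 0.75 with an adjusted p of 1.99e-05. Il7r also read higher on effector KO arrays, 5.00 to 6.60, than on effector WT arrays, 3.83 to 4.46. Genes that mark CD8 T cells averaged 10.56 to 10.66 over 8 genes on memory arrays and 10.68 to 10.91 on effector arrays, and each of the 8 was above the array median throughout. Of the 8, Zap70, Runx3, Cd8a, Cd3e and Cd3g rose in effector against memory cells averaged, by 0.17 for Cd3g to 0.54 for Zap70 (adjusted p = 2.29e-05), and the part of this shift in the results was not tested.

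On most arrays the replication genes stood at a common level, and 4 arrays lay below it, 3 of memory KO and 1 of effector KO. The mean over the 37 members was 7.76, 7.75, 7.71 and 7.77 on effector WT arrays 1 to 4 and 7.72, 7.70, 7.71 and 7.57 on memory WT arrays 1 to 4. On effector KO arrays 1 to 4 it was 7.84, 7.68, 7.89 and 7.32. On memory KO arrays 1 to 4 it was 6.91, 7.30, 7.72 and 6.96. The WT arrays thus spanned a narrow band, the effector KO arrays lay in or near it except array 4, and memory KO array 3 lay with WT while arrays 1, 2 and 4 lay below every WT array. The SD over arrays was 0.02 in effector WT, 0.07 in memory WT, 0.26 in effector KO and 0.38 in memory KO, with n = 4 in each.

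**Figure D1:**
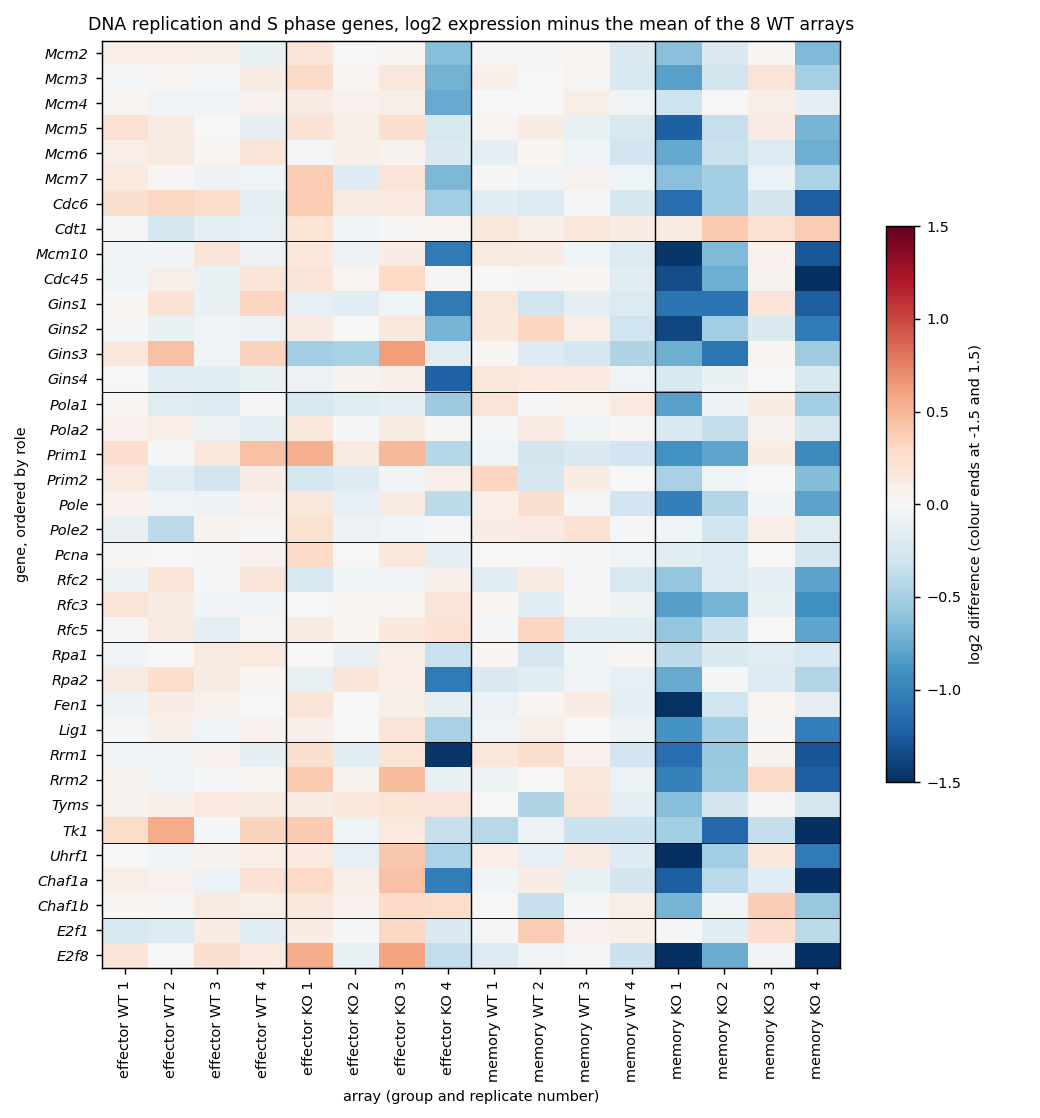
Colour shows the log2 expression of each of 37 replication genes (rows, ordered by role) on each of 16 arrays (columns), minus the mean of the 8 WT arrays, with the scale ended at -1.5 and 1.5. Blue fills most of the columns of memory KO 1 and memory KO 4, is paler in memory KO 2, and is nearly absent in memory KO 3, while Cdt1 is the row without blue in memory KO.

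Counted gene by gene, 36 of 37 members on memory KO array 1 lay below the range of the 4 memory WT arrays, as did 28 on array 2, 2 on array 3 and 34 on array 4. Over all genes these shares were 26.1%, 21.0%, 17.3% and 22.5%. On effector KO array 4, 26 members lay below the effector WT range, against 30% of all genes. The other effector KO arrays had 6, 10 and 0 members below that range, against 28.3%, 19.5% and 21.5% of all genes. They had 21, 4 and 23 members above it, against 28.8%, 22.9% and 21.5%, so the 10 below on array 2 are near the share of all genes. On memory WT array 4, 24 members lay below the other 3 memory WT arrays, against 25.7% of all genes, with a median shift of -0.13. The farthest single shifts from the WT mean were -1.95 and -1.57 for E2f8 on memory KO arrays 1 and 4.

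The spread among replicates of memory KO was wider for these genes than for the genome. Their median SD over the memory KO arrays was 0.42, against 0.13 over the memory WT arrays. For all genes these medians were 0.17 and 0.16. The SD was larger in memory KO than in memory WT for 35 of 37 members and for 54.8% of all genes. In effector cells it was larger in KO for 29 members, and for 73.5% of all genes.

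With both genotypes averaged, effector cells expressed several replication genes at a higher level than memory cells. In the same comparison 5 of the 8 CD8 T cell genes rose as well. Of the 37 members 8 rose in effector cells and 1, Cdt1, fell, where 5.05% of all genes rose and 7.11% fell. The risers were Tk1, Rfc3, Mcm6, Cdc6, Prim1, Tyms, E2f8 and Cdc45, which between them cover licensing, helicase activation, priming, clamp loading and thymidine supply. The median difference over the members was 0.28, against 0.01 over all genes, and 31 of 37 members had a positive sign. Taken by genotype, the median was 0.45 in KO mice and 0.05 in WT mice, and no member passed in WT mice. Of the averaged calls, Tk1, Rfc3, Mcm6, Cdc6, Prim1, Tyms and Cdt1 held in all 16 fits that each left out 1 array. E2f8 held in 7 of the 16 and Cdc45 in 2, with adjusted p up to 0.0693 and 0.0923. Without memory KO array 3, the count was 17 in place of 9, with 11.8% of all genes called in place of 12.2%.

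Within KO mice, 10 members rose in effector against memory cells and 0 fell, where 3.14% of all genes rose and 4.30% fell. The 10 were Rfc3, Cdc45, Tk1, E2f8, Cdc6, Mcm6, Rfc5, Prim1, Tyms and Rrm2, with differences from 0.47 for Tyms to 1.32 for E2f8, and the median over the members was 0.45. All 4 effector KO arrays lay above all 4 memory KO arrays for Rfc3, Rfc5, Tyms and Tk1, a pattern seen in 4.06% of all genes.

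The number of calls in KO mice moved with single arrays. It was 2, 5, 3 and 18 without effector KO array 1, 2, 3 or 4, and 3, 6, 19 and 1 without memory KO array 1, 2, 3 or 4, all of them higher in effector cells. The share of all genes that passed higher in these fits was 2.29%, 2.44%, 2.11% and 4.47% without an effector KO array, and 2.86%, 2.53%, 3.26% and 1.61% without a memory KO array. Without memory KO array 3 the members' count thus rose from 10 to 19 while the share of all genes went from 3.14% to 3.26%. Rfc3 passed in all 16 fits that left out 1 array, Cdc45 in 15, Tk1 in 13, E2f8 and Rfc5 in 12, Cdc6 and Mcm6 in 11, Prim1 in 10, and Rrm2 and Tyms in 3 each. With only the 8 KO arrays in the fit, 0 members and 2.71% of all genes passed, 15 members and 15.6% of all genes had an unadjusted p under 0.05, and Rfc3 had an adjusted p of 0.0635.

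Within WT mice no member passed. The median difference was 0.05, 25 of 37 signs were positive, and 3.22% of all genes passed in either direction. By unadjusted p under 0.05, 2 members differed, Tk1 and Cdt1, against 14.1% of all genes. All 4 effector WT arrays lay above all 4 memory WT arrays for Prim1, Rpa2, Tk1 and E2f8, where 6.41% of all genes did so, and below them for Cdt1, where 6.80% did. With only the 8 WT arrays in the fit, 2 members passed, Prim1 and Tk1, with 5.95% of all genes. In that fit 9 members and 19.2% of all genes had an unadjusted p under 0.05. With array weights 1 member passed, Cdt1, with 7.41% of all genes. The difference between the subset effects of KO and WT mice is the interaction, in which 0 members and 0% of all genes passed.

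**Figure D2:**
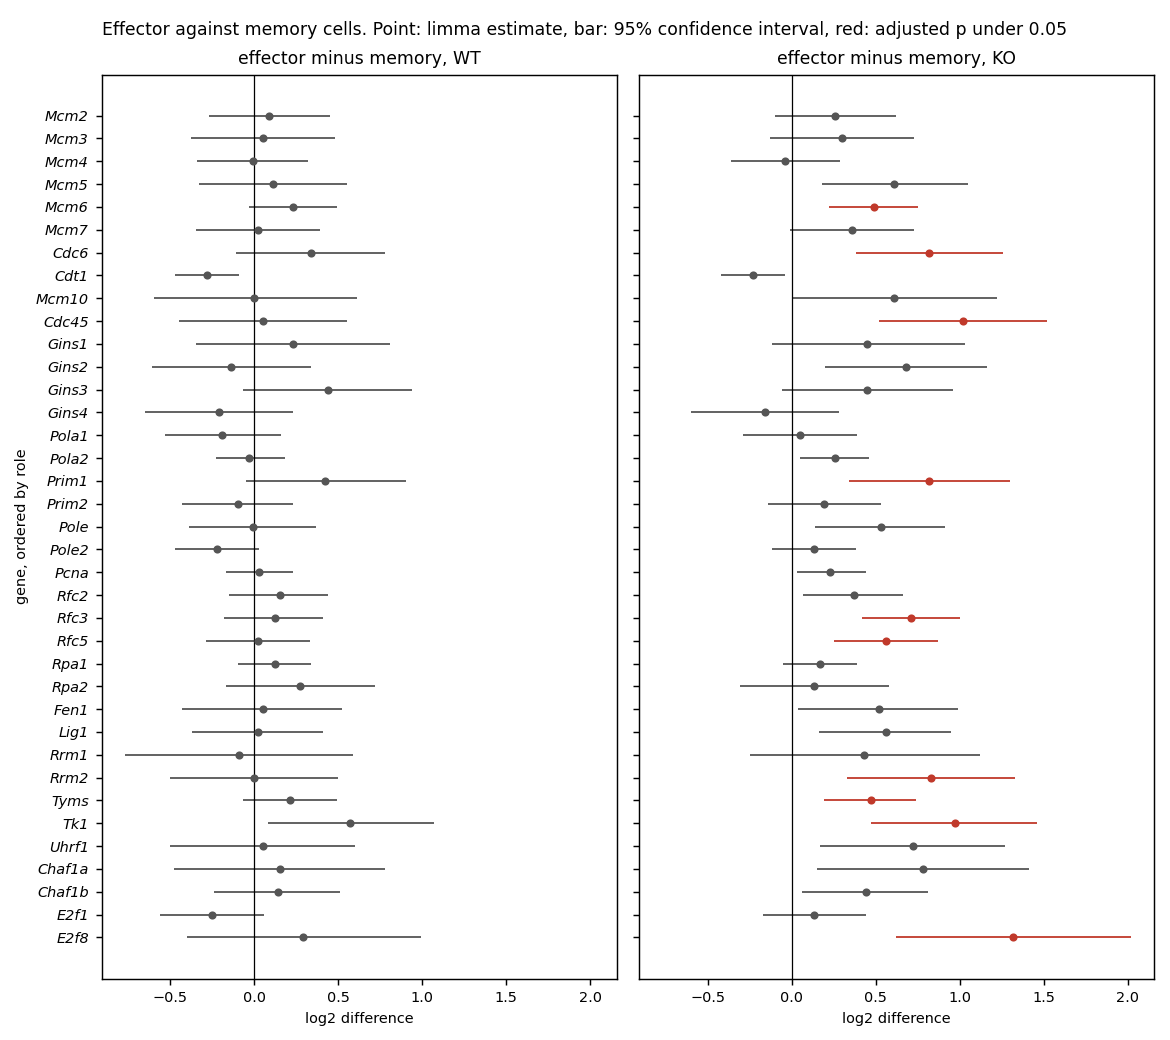
Points give the log2 difference of effector minus memory cells for each of 37 replication genes in WT (left) and KO (right), and bars give 95% confidence intervals from limma. In KO the points lie mostly right of 0 and 10 are marked red for an adjusted p under 0.05, while in WT they scatter around 0 and none is red.

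Between genotypes, memory KO cells gave lower readings than memory WT cells for nearly every replication gene, and none of the differences passed the test. The sign was negative for 36 of 37 members, with a median of -0.42 against 0.02 over all genes, of which 45.2% had a negative sign. Differences ran from -1.01 for E2f8 to 0.15 for Cdt1, the only member with a positive sign. The limma test called 0 members and 0.113% of all genes, and the lowest adjusted p among members was 0.131 for Rfc3. By unadjusted p under 0.05, 22 members were lower and 0 higher, against 6.08% of all genes lower and 11.3% in either direction.

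The outcome of that test turned on memory KO array 3. Without it, 10 members passed, all lower in KO, where 0.96% of all genes passed lower and 1.12% in either direction, while the count was 0 in the other 15 fits that left out 1 array. The 10 were Rfc3, Cdc45, Rrm2, Lig1, Gins1, E2f8, Gins2, Uhrf1, Pole and Mcm10. Across all 16 such fits the median over the members stayed between -0.56 and -0.31. All 4 memory KO arrays lay below all 4 memory WT arrays for only 2 members, Cdc6 and Mcm7, and 3.37% of all genes showed that pattern.

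Markers of other spleen cells were read on the same arrays. The 18 markers of B and CLL cells averaged 4.40 to 4.78 on effector arrays, 5.32 to 6.01 on memory WT and 4.92, 5.09, 5.39 and 4.98 on memory KO arrays 1 to 4, so memory KO array 3 was the highest of its group here as well. Of the 18, 5 were above the array median on all 16 arrays and 3 below it on all. In effector against memory 13 fell averaged, 13 in WT and 3 in KO, where 7.11%, 2.3% and 4.30% of all genes fell. Between memory KO and WT 15 of the 18 had a negative sign and 3 a positive one, with a median of -0.55. Only Cd22 passed there, at -1.04 (SE 0.16, adjusted p = 0.0145), where 0.0766% of all genes passed lower. Ighm differed by 0.24 (SE 0.22, adjusted p = 0.734), with 11.10 to 11.48 on memory KO and 10.75 to 11.60 on memory WT. Cd79a, a B cell receptor subunit, ranged from 5.28 to 6.75 on memory WT and 4.18 to 5.91 on memory KO. The probe set of mouse Tcl1 was above the median on 0 arrays, and whether it reads the TCL1 transgene of the leukaemia was not tested. The part of B lineage RNA in the differences of the replication genes was not tested.

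Among 19 myeloid markers 6 fell and 1 rose in effector cells averaged, and in memory KO against WT 0 passed. Lyz2 ranged from 6.80 to 6.89 on memory WT and 5.05 to 6.83 on memory KO. Among 8 NK cell markers 3 rose and 2 fell, among 10 markers of CD4 and regulatory T cells 1 rose and 1 fell, among 8 erythroid markers 0 rose and 1 fell, and among 9 platelet markers 0 passed, in the same averaged comparison. With 5.05% of all genes higher and 7.11% lower there, the single calls in the CD4 and erythroid lists are near the background. None of these 4 lists had a call in KO against WT in either subset. The CD4 and regulatory T cell list moved with the replication genes on single arrays, with means of 5.72, 6.11, 6.17 and 5.44 on memory KO arrays 1 to 4, 6.27 to 6.51 on memory WT, 6.31 to 6.47 on effector WT and 6.33, 6.49, 6.27 and 5.80 on effector KO. Of its 10 genes 8 had a negative sign in memory KO against WT, with a median of -0.36. The genes of the list did not move alike. Ikzf2 differed by -1.41 (SE 0.49) and Tnfrsf4 by -1.39 (SE 0.49) there, but Cd4 by -0.39 (SE 0.18) and Foxp3 by -0.03 (SE 0.21). Foxp3 read 5.30, 5.90, 5.67 and 5.23 on memory KO arrays 1 to 4 and 5.23 to 5.81 on memory WT. The part of CD4 and regulatory T cells in the results was not tested.

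In effector cells KO and WT were close. The median difference was -0.05, 14 signs were positive and 23 negative, and the test called 0 members and 0.0541% of all genes. The median turned to 0.09 without effector KO array 4 and to 0.05 with array weights. By unadjusted p under 0.05 only Cdt1 differed, against 9.32% of all genes. The interaction, the genotype effect in effector cells minus that in memory cells, had a median of 0.35 over the members with 35 positive signs. It passed for 0 members and 0 genes, with 6 members and 5.84% of genes under an unadjusted p of 0.05. With both subsets averaged, KO minus WT had a median of -0.25, with 0 members and 0.194% of all genes called, and 14 members lower and 1 higher by unadjusted p, against 7.19% of all genes lower and 13.9% in either direction. Without memory KO array 3, 3 members and 0.879% of all genes were called in that comparison. These comparisons share arrays with each other and with effector against memory in KO, so their values are not separate evidence.

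**Figure D3:**
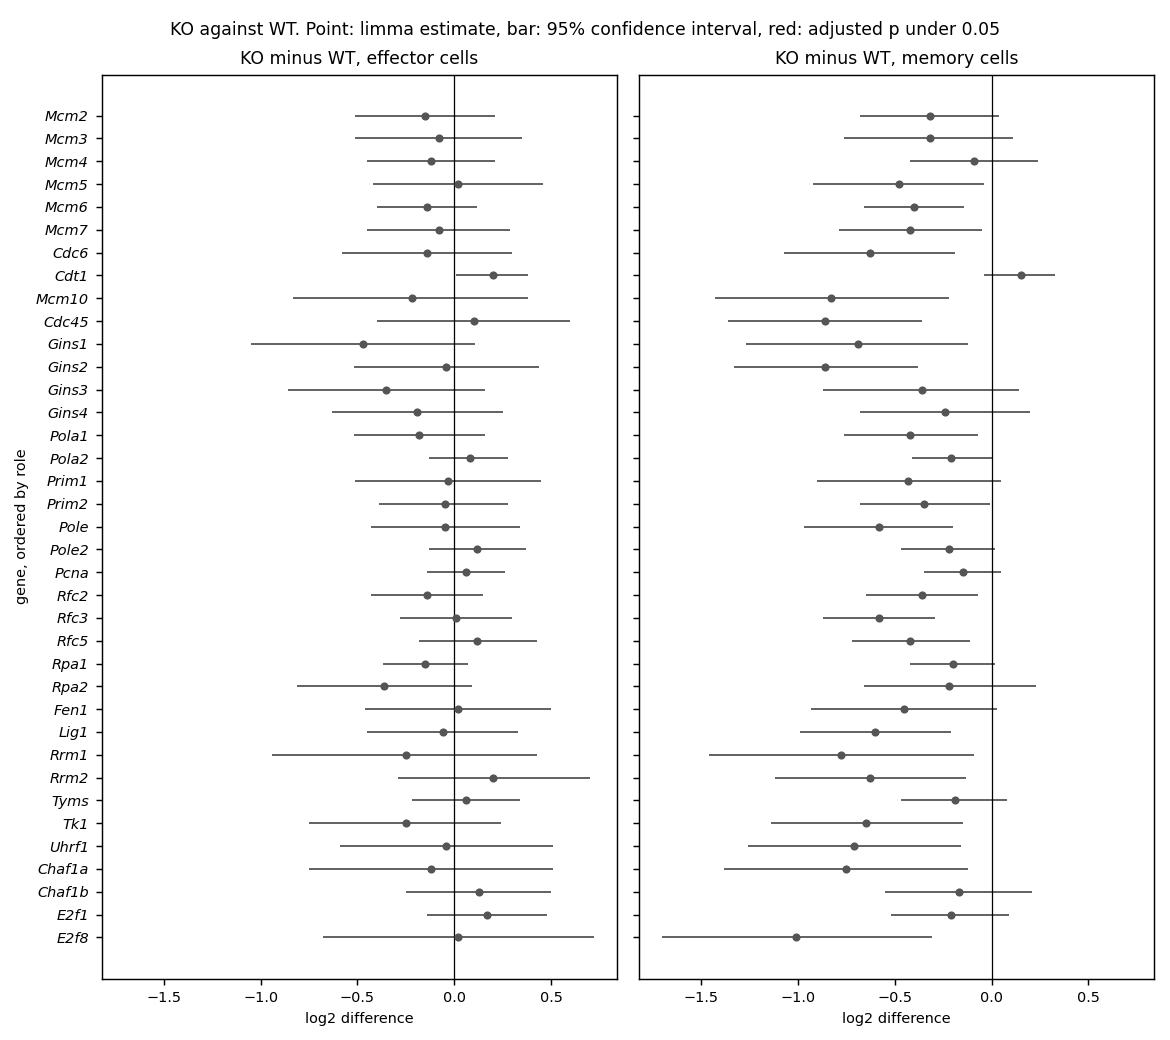
Points give the log2 difference of KO minus WT for each of 37 replication genes in effector cells (left) and memory cells (right), with 95% confidence intervals from limma. In memory cells 36 points lie left of 0 and 22 intervals lie wholly left of it before adjustment, and no point is red in either panel.

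The origin licensing genes were represented by the 6 subunits of the Mcm ring and the loaders Cdc6 and Cdt1. Averaged over both genotypes, Mcm6 and Cdc6 rose in effector cells, Cdt1 fell, and the other 5 did not pass. Mcm6 read 9.93, 9.96, 9.86 and 10.02 on effector WT arrays 1 to 4, 9.81, 9.90, 9.88 and 9.61 on effector KO, 9.69, 9.86, 9.76 and 9.54 on memory WT and 9.06, 9.49, 9.62 and 9.09 on memory KO. Its effector WT arrays met the memory WT range only at 9.86, and memory KO arrays 1 and 4 were the lowest of the 16. Effector minus memory was 0.49 (SE 0.12, adjusted p = 0.0239) in KO, 0.23 (SE 0.12, adjusted p = 0.444) in WT and 0.36 (SE 0.09, adjusted p = 0.012) averaged, a 1.28-fold difference. Memory KO minus WT was -0.40 (SE 0.12, adjusted p = 0.238).

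The other Mcm subunits shared the array pattern to differing degrees. Mcm5 read 8.34, 9.22, 9.68 and 8.86 on memory KO arrays 1 to 4 against 9.59, 9.67, 9.45 and 9.32 on memory WT, 9.79, 9.68, 9.57 and 9.43 on effector WT and 9.78, 9.65, 9.81 and 9.32 on effector KO. Memory KO array 1 lay well under the rest, and array 3 was level with the highest memory WT arrays. Mcm7 read 7.40, 7.52, 7.94 and 7.55 on memory KO against 8.05, 7.98, 8.09 and 7.97 on memory WT, without overlap, and 8.18, 8.05, 7.95 and 7.97 on effector WT and 8.41, 7.84, 8.23 and 7.36 on effector KO, where array 4 was the lowest of the 16. Mcm7 differed by -0.42 (SE 0.18, adjusted p = 0.377) between memory KO and WT, and Mcm5 by -0.48 (SE 0.21, adjusted p = 0.402).

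Mcm2 read 8.32, 8.73, 8.97 and 8.29 on memory KO, 8.96, 8.93, 8.98 and 8.73 on memory WT, 9.13, 8.95, 8.97 and 8.31 on effector KO and 9.05, 9.05, 9.03 and 8.84 on effector WT. Mcm3 read 8.25, 8.78, 9.25 and 8.56 on memory KO, 9.14, 9.07, 9.10 and 8.83 on memory WT, 9.35, 9.09, 9.23 and 8.35 on effector KO and 9.04, 9.08, 9.04 and 9.17 on effector WT. For both genes memory KO array 3 lay inside or above the WT range, and effector KO array 4 lay with the low memory KO arrays. Mcm4 read 8.40, 8.71, 8.80 and 8.57 on memory KO, 8.70, 8.70, 8.79 and 8.66 on memory WT, 8.83, 8.77, 8.79 and 7.95 on effector KO and 8.74, 8.65, 8.65 and 8.77 on effector WT. Its memory KO arrays fell on both sides of the memory WT range, and effector KO array 4 stood away at 7.95. Memory KO minus WT was -0.32 (SE 0.17, adjusted p = 0.509) for Mcm2, -0.32 (SE 0.20, adjusted p = 0.589) for Mcm3 and -0.09 (SE 0.16, adjusted p = 0.883) for Mcm4.

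Cdc6 and Cdt1, which act together to load the ring, moved in opposite directions. Cdc6 ranged from 6.74 to 7.19 on effector WT, 6.36 to 7.26 on effector KO, 6.62 to 6.85 on memory WT and 5.65 to 6.61 on memory KO. Its effector minus memory difference was 0.58 (SE 0.15, adjusted p = 0.0155) averaged and 0.82 (SE 0.21, adjusted p = 0.0235) in KO. Cdt1 read 6.69, 6.44, 6.56 and 6.58 on effector WT, 6.91, 6.67, 6.72 and 6.75 on effector KO, 6.88, 6.79, 6.88 and 6.83 on memory WT and 6.84, 7.10, 6.94 and 7.09 on memory KO. The 4 effector WT arrays were lower than every memory array, and the highest readings were on memory KO arrays 2 and 4, where most other members were low. Effector minus memory was -0.25 (SE 0.06, adjusted p = 0.0125) averaged, and the genotype differences were 0.15 (SE 0.09, adjusted p = 0.569) in memory cells and 0.20 (SE 0.09, adjusted p = 0.527) in effector cells.

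RefSeq promoters of build GRCm38.p6, from 250 bases before to 50 bases after the start of a transcript, were listed for 30 of the 37 members, in 35 windows of 300 bases. They were searched on both strands for the E2F words TTTCCCGC, TTTCGCGC, TTTGCCGC and TTTGGCGC. An E2F word lay in 34.3% of the member windows and in 2.26% of all 32851 windows of the same length. The 12 members that held one were Cdc6, Cdt1, Gins3, Lig1, Mcm3, Mcm5, Mcm6, Mcm7, Pola1, Pole2, Rfc3 and Uhrf1. The CCAAT box, searched as CCAAT, lay in 60% of member windows and 37.4% of all windows. The cell cycle homology region, searched as TTTGAA or TTCGAA, lay in 20.0% and 19.2%. Words of different motifs could share bases. Member windows were also richer in CG dinucleotides, with a median of 21 against 7. Mcm6 held 3 E2F words and Rfc3, Mcm5, Mcm7 and Mcm3 held 2 each. Mcm6 and the 3 of these with the lowest p in effector against memory averaged are shown, without Mcm3, from 180 bases before to 30 bases after the start, 5′ to 3′ on the gene's strand, with the words in capitals, to let their number and spacing be read beside the values of these genes.
Mcm6, chr1:128359676-128359885, minus strand: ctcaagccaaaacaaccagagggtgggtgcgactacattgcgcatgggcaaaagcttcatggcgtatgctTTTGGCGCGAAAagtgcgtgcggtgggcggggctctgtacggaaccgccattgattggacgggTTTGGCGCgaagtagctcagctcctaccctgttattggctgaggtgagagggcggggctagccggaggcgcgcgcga
Rfc3, chr5:151651179-151651388, minus strand: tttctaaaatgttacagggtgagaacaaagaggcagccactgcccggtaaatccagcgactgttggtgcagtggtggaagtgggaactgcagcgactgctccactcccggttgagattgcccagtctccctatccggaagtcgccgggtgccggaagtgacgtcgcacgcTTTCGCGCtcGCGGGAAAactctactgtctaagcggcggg
Mcm5, chr8:75109329-75109538, plus strand: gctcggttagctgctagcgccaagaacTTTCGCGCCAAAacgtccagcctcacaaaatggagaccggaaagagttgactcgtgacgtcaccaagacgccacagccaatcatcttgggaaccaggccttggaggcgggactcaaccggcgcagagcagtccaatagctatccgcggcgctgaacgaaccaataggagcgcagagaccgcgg
Mcm7, chr5:138171854-138172063, minus strand: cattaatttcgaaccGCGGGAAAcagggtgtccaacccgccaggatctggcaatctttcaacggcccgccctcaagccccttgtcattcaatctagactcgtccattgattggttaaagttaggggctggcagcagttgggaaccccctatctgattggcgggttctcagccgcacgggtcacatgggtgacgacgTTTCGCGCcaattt
Counted from the start site, the words began at -110, -106 and -47 in Mcm6, at -10 and 1 in Rfc3, at -153 and -149 in Mcm5 and at -165 and 17 in Mcm7. In the longer capital runs of Mcm6 and Mcm5, the words TTTGGCGC and TTTCGCGC overlap on opposite strands. A match is a string of letters and was not measured as a binding site. Members with and without an E2F word had the same median difference between memory KO and WT, -0.42 over 12 and -0.42 over 18 members.

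The helicase activation genes had a median of -0.76 over 6 members in memory KO against WT. The chromatin genes had -0.71 there, the deoxynucleotide enzymes -0.64 and the E2F factors -0.61. The 8 licensing genes had -0.36 and the 6 priming and polymerase genes -0.38. The clamp and its loader had -0.39, and the genes of single strand binding and lagging strand fragments -0.33. Cdc45, which bridges the ring and GINS, was the member that passed in the subset comparison. It read 6.99, 7.14, 6.95 and 7.24 on effector WT arrays 1 to 4, 7.25, 7.10, 7.35 and 7.04 on effector KO, 7.06, 7.07, 7.09 and 6.90 on memory WT and 5.73, 6.32, 7.11 and 5.51 on memory KO. The 12 arrays outside memory KO lay between 6.90 and 7.35, memory KO array 3 lay among them, and arrays 1, 2 and 4 were lower. Effector minus memory was 1.02 (SE 0.24, adjusted p = 0.014) in KO, a 2.02-fold difference, and 0.05 (SE 0.24, adjusted p = 0.959) in WT. The difference between these, the interaction, was 0.96 (SE 0.33, adjusted p = 0.841). Memory KO minus WT was -0.86 (SE 0.24, adjusted p = 0.19).

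Of the 4 GINS subunits, Gins2 and Gins1 had the most negative differences between memory KO and WT. Gins2 read 5.36, 6.20, 6.51 and 5.67 on memory KO, 6.88, 7.05, 6.82 and 6.42 on memory WT, 6.84, 6.72, 6.88 and 6.02 on effector KO and 6.69, 6.61, 6.67 and 6.64 on effector WT. Gins1 read 5.38, 5.39, 6.68 and 5.24 on memory KO, 6.65, 6.18, 6.35 and 6.28 on memory WT, 6.36, 6.31, 6.42 and 5.42 on effector KO and 6.51, 6.70, 6.38 and 6.80 on effector WT. For Gins1 array 3 was the highest of all 8 memory arrays while the other memory KO arrays were below all WT arrays, and effector KO array 4 lay with those low arrays. The memory KO minus WT difference was -0.86 (SE 0.23, adjusted p = 0.173) for Gins2 and -0.69 (SE 0.27, adjusted p = 0.345) for Gins1, and in effector cells it was -0.47 (SE 0.27, adjusted p = 0.607) for Gins1. Gins3 and Gins4 differed by -0.36 and -0.24 in memory cells. Mcm10, a scaffold that helps to start the helicase, differed by -0.83 (SE 0.29, adjusted p = 0.283).

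The clamp and its loader were measured by Pcna, Rfc2, Rfc3 and Rfc5. Rfc3 was the member with the lowest p in 3 of the comparisons, effector against memory in KO, KO against WT in memory cells and the interaction. It read 7.09, 7.03, 6.86 and 6.86 on effector WT, 6.91, 6.93, 6.94 and 7.10 on effector KO, 6.93, 6.75, 6.87 and 6.83 on memory WT and 6.08, 6.20, 6.79 and 5.98 on memory KO. Memory KO arrays 1, 2 and 4 lay between 5.98 and 6.20, and every other array lay between 6.75 and 7.10. Unlike most members, Rfc3 was not low on effector KO array 4, where it gave its highest value. The effector minus memory difference of Rfc3 was 0.71 (SE 0.14, adjusted p = 0.00461) in KO, 0.12 (SE 0.14, adjusted p = 0.811) in WT and 0.41 (SE 0.10, adjusted p = 0.0097) averaged. Memory KO minus WT was -0.58 (SE 0.14, adjusted p = 0.131), and the interaction was 0.59 (SE 0.20, adjusted p = 0.841).

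Rfc5, another loader subunit, read 7.80, 7.92, 7.65 and 7.81 on effector WT, 7.92, 7.82, 7.94 and 8.0 on effector KO, 7.76, 8.11, 7.62 and 7.63 on memory WT and 7.21, 7.46, 7.78 and 7.0 on memory KO. Effector KO lay above memory KO without overlap, by 0.56 (SE 0.15, adjusted p = 0.0272). Pcna, the sliding clamp, read 10.69, 10.66, 10.65 and 10.73 on effector WT, 10.96, 10.66, 10.83 and 10.52 on effector KO, 10.68, 10.68, 10.65 and 10.61 on memory WT and 10.50, 10.46, 10.67 and 10.41 on memory KO. Its differences were small and overlapping, -0.15 (SE 0.10, adjusted p = 0.6) for memory KO minus WT and 0.13 (SE 0.07, adjusted p = 0.265) for effector minus memory averaged. Rfc2 differed by -0.36 in memory KO against WT, with an adjusted p of 0.341.

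**Figure D4:**
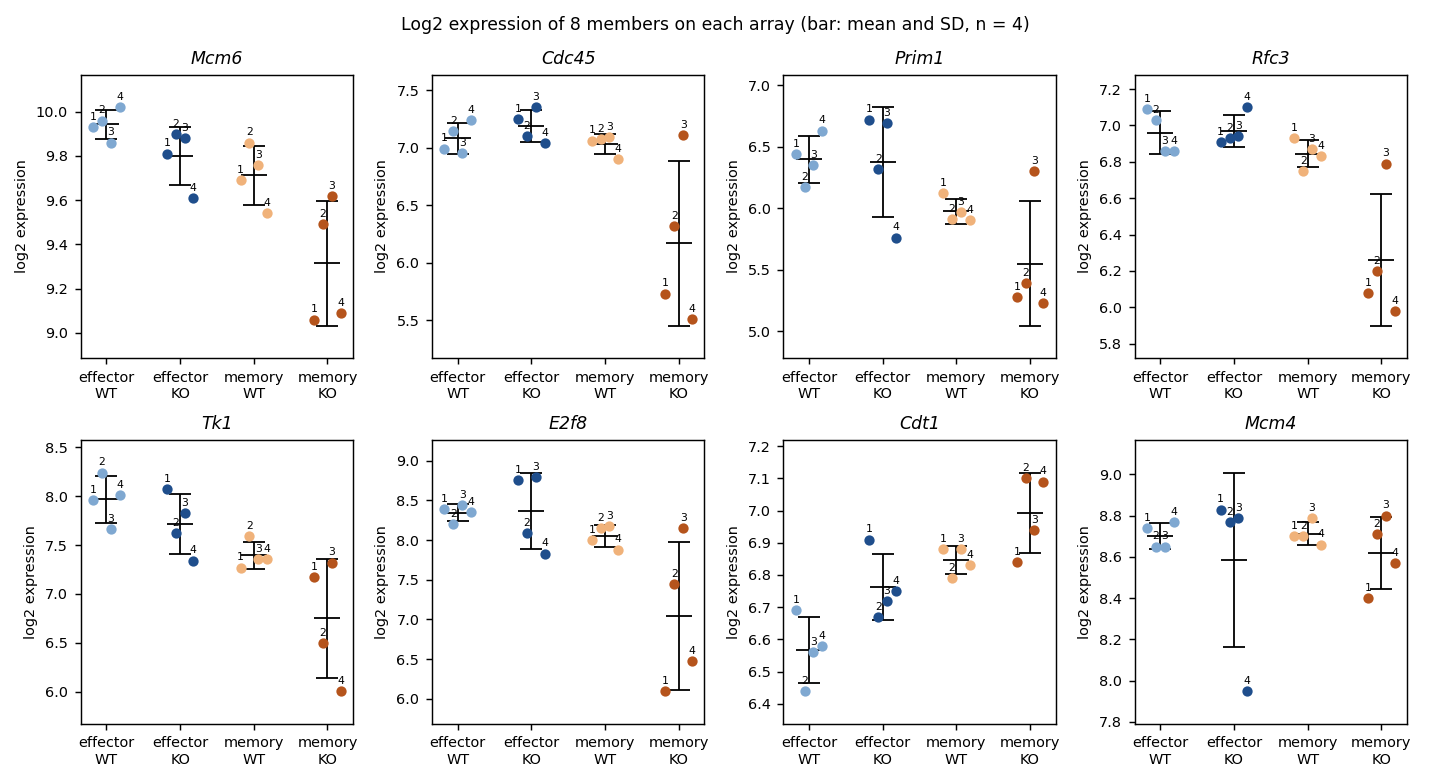
Each panel plots the log2 expression of 1 replication gene on the 16 arrays, with the replicate number beside the point and bars for the mean and SD of 4 arrays. In Mcm6, Cdc45, Prim1, Rfc3 and E2f8 memory KO array 3 sits above the other memory KO arrays, Cdt1 is lower in effector WT than in memory cells, and in Mcm4 effector KO array 4, at 7.95, stands apart.

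The priming and polymerase genes were Pola1 and Pola2 of polymerase alpha, the primase subunits Prim1 and Prim2, and Pole and Pole2 of the leading strand polymerase epsilon. Prim1, the catalytic primase subunit, was the member of this role that rose in effector cells. It read 6.44, 6.17, 6.35 and 6.63 on effector WT, 6.72, 6.32, 6.69 and 5.76 on effector KO, 6.12, 5.91, 5.97 and 5.90 on memory WT and 5.28, 5.39, 6.30 and 5.23 on memory KO. The 4 effector WT arrays were above all memory WT arrays, and memory KO array 3 reached the effector range while the other memory KO arrays lay at 5.39 or lower. Effector minus memory was 0.62 (SE 0.16, adjusted p = 0.0163) averaged, 0.82 (SE 0.23, adjusted p = 0.0365) in KO and 0.42 (SE 0.23, adjusted p = 0.438) in WT. Pole differed by -0.58 (SE 0.18, adjusted p = 0.239) in memory KO against WT, a value that was -0.15 when its dim probe set was averaged in. Pola1, Pola2, Prim2 and Pole2 differed by -0.42, -0.21, -0.35 and -0.22 in that comparison.

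The single strand binding proteins Rpa1 and Rpa2, the flap nuclease Fen1 and the ligase Lig1, which join the fragments of the lagging strand, had 0 calls by limma in the 7 comparisons. Lig1 read 8.71, 8.82, 8.68 and 8.80 on effector WT, 8.82, 8.74, 8.94 and 8.26 on effector KO, 8.68, 8.83, 8.75 and 8.66 on memory WT and 7.85, 8.22, 8.76 and 7.70 on memory KO. Memory KO array 3 lay inside the WT range and arrays 1, 2 and 4 below it, as for most members. Memory KO minus WT was -0.60 (SE 0.18, adjusted p = 0.237), and effector minus memory was 0.56 (SE 0.18, adjusted p = 0.0805) in KO. Rpa2 read 9.41, 9.54, 9.39 and 9.31 on effector WT, 9.16, 9.46, 9.37 and 8.22 on effector KO, 9.06, 9.12, 9.22 and 9.15 on memory WT and 8.52, 9.24, 9.08 and 8.84 on memory KO. Effector WT lay above memory WT without overlap, and effector KO array 4, at 8.22, was the lowest array of all. Rpa2 differed by -0.36 (SE 0.21, adjusted p = 0.613) between effector KO and WT, which was -0.08 without that array. Fen1 differed by -0.45 in memory KO against WT and by -0.12 without memory KO array 1, where it read 4.77.

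Of the 4 deoxynucleotide enzymes, Tk1, Tyms and Rrm2 were called higher in effector than in memory cells of KO mice. Of these, Tyms and Rrm2 passed in 3 of the 16 fits that left out 1 array. Between effector KO and WT cells Tk1, Tyms and Rrm2 differed by -0.25, 0.06 and 0.20, and none passed. Tk1, the thymidine kinase of S phase, was the member with the lowest p in effector against memory averaged. It read 7.96, 8.24, 7.66 and 8.01 on effector WT, 8.07, 7.62, 7.83 and 7.34 on effector KO, 7.27, 7.59, 7.36 and 7.36 on memory WT and 7.17, 6.50, 7.32 and 6.01 on memory KO. In each genotype the effector arrays were above the memory arrays without overlap, and memory KO arrays 2 and 4 were the lowest. Effector minus memory was 0.77 (SE 0.16, adjusted p = 0.00495) averaged, a 1.71-fold difference, 0.97 (SE 0.23, adjusted p = 0.0175) in KO and 0.57 (SE 0.23, adjusted p = 0.255) in WT. Tyms, which makes thymidylate, differed by 0.34 (SE 0.09, adjusted p = 0.0245) averaged and 0.47 (SE 0.13, adjusted p = 0.0406) in KO. Rrm1 and Rrm2 form ribonucleotide reductase. Rrm2 was higher by 0.83 (SE 0.23, adjusted p = 0.0407) in effector than in memory cells of KO mice. Rrm1 differed by -0.78 (SE 0.32, adjusted p = 0.377) in memory KO against WT, with effector KO array 4 at 6.26 as its lowest reading.

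The chromatin genes, Chaf1a and Chaf1b of chromatin assembly factor 1 and Uhrf1, which guides maintenance methylation, had 0 calls by limma in the 7 comparisons. Chaf1b read 8.04, 8.03, 8.14 and 8.10 on effector WT, 8.18, 8.07, 8.30 and 8.28 on effector KO, 8.01, 7.66, 7.99 and 8.10 on memory WT and 7.31, 7.95, 8.38 and 7.44 on memory KO. Its memory KO arrays fell on both sides of WT, with array 3 the highest of all 16 and arrays 1 and 4 the lowest. Effector minus memory averaged was 0.29 (SE 0.13, adjusted p = 0.173). Uhrf1 and Chaf1a differed by -0.71 and -0.75 in memory KO against WT, with adjusted p of 0.311 and 0.351.

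E2f8, an atypical E2F that represses E2F targets and is itself made in S phase, gave the largest differences of the list in effector against memory, averaged and in KO, and in memory KO against WT. It read 8.39, 8.20, 8.44 and 8.35 on effector WT, 8.76, 8.09, 8.79 and 7.83 on effector KO, 8.0, 8.15, 8.18 and 7.88 on memory WT and 6.10, 7.45, 8.15 and 6.48 on memory KO. Memory KO arrays 1 and 4 were the lowest of the 16, array 2 came next, and array 3 sat within the memory WT range. In E2f8 effector minus memory was 1.32 (SE 0.33, adjusted p = 0.0217) in KO, a 2.50-fold difference, 0.29 (SE 0.33, adjusted p = 0.793) in WT and 0.81 (SE 0.23, adjusted p = 0.0308) averaged. Memory KO minus WT was -1.01 (SE 0.33, adjusted p = 0.261) and the interaction 1.03 (SE 0.47, adjusted p = 0.841). E2f1, an activating E2F, showed little of this, with 0.13 for effector minus memory in KO, -0.25 in WT and -0.21 for memory KO minus WT.

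Other genes of replication, 45 measured, had a median of 0.17 in effector against memory averaged. In that comparison 6 rose, where 5.05% of all genes did, and 3 fell, near the 7.11% of all genes that did. Cdc7, the kinase that fires licensed origins, rose by 0.50 (SE 0.08, adjusted p = 0.000602), and Clspn, which links the fork to the checkpoint, rose by 0.66 (SE 0.14, adjusted p = 0.00386). Orc2 of the origin recognition complex fell by 0.27 (SE 0.06, adjusted p = 0.00768). Gmnn, the inhibitor of Cdt1, was higher by 0.72 in effector than in memory cells of KO mice (adjusted p = 0.0301). It differed by -0.07 in WT mice (adjusted p = 0.938) and did not pass averaged, at 0.33 (adjusted p = 0.145). In memory KO against WT, 35 of the 45 had a negative sign, the median was -0.22, and 0 passed.

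Genes of nucleotide supply outside the list fell where they passed. Of 27 measured, 0 rose and 7 fell in effector cells averaged over genotypes, beside 5.05% and 7.11% of all genes, with a median of -0.21. Atic and Gart, enzymes of purine synthesis, fell by 0.71 (SE 0.09, adjusted p = 5.38e-05) and 0.40 (SE 0.06, adjusted p = 0.000364). Tk2, the mitochondrial thymidine kinase, fell by 0.56 (SE 0.09, adjusted p = 0.000526), where Tk1 had risen. Samhd1, which breaks down deoxynucleotides, fell by 0.46 (SE 0.09, adjusted p = 0.00307). In memory KO against WT the median of this list was -0.11 with 0 calls.

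Of 24 regulators of the G1 to S transition, 6 rose and 2 fell in effector cells averaged, where 5.05% of all genes rose and the 2 are near the 7.11% that fell. E2f2 rose by 0.64 (SE 0.12, adjusted p = 0.00238) and E2f7, the relative of E2f8, by 0.61 (SE 0.14, adjusted p = 0.00849). Ccnd2, a D-type cyclin of early G1, fell by 0.43 (SE 0.09, adjusted p = 0.00499). The median of the list in memory KO against WT was -0.35, with 20 of 24 signs negative and 0 calls.

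The genes of mitosis, read on the same arrays, followed the array pattern of the replication genes over a wider range. Their mean over 24 genes was 6.46, 7.33, 7.91 and 6.36 on memory KO arrays 1 to 4 and 7.88, 8.01, 7.92 and 7.70 on memory WT arrays. Arrays 1 and 4 were again the lowest, array 2 lay between and array 3 was within WT. In memory KO against WT all 24 had a negative sign, the median was -0.91, and 0 passed. In effector against memory 11 rose in KO, 0 passed in WT and 8 rose averaged. Of all genes 3.14% rose in KO, 3.22% passed in either direction in WT and 5.05% rose averaged. Mki67, a proliferation marker, was higher by 1.06 in effector than in memory cells of KO mice (adjusted p = 0.00818) and Hmmr, a spindle gene, by 1.36 (adjusted p = 0.00631).

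**Figure D5:**
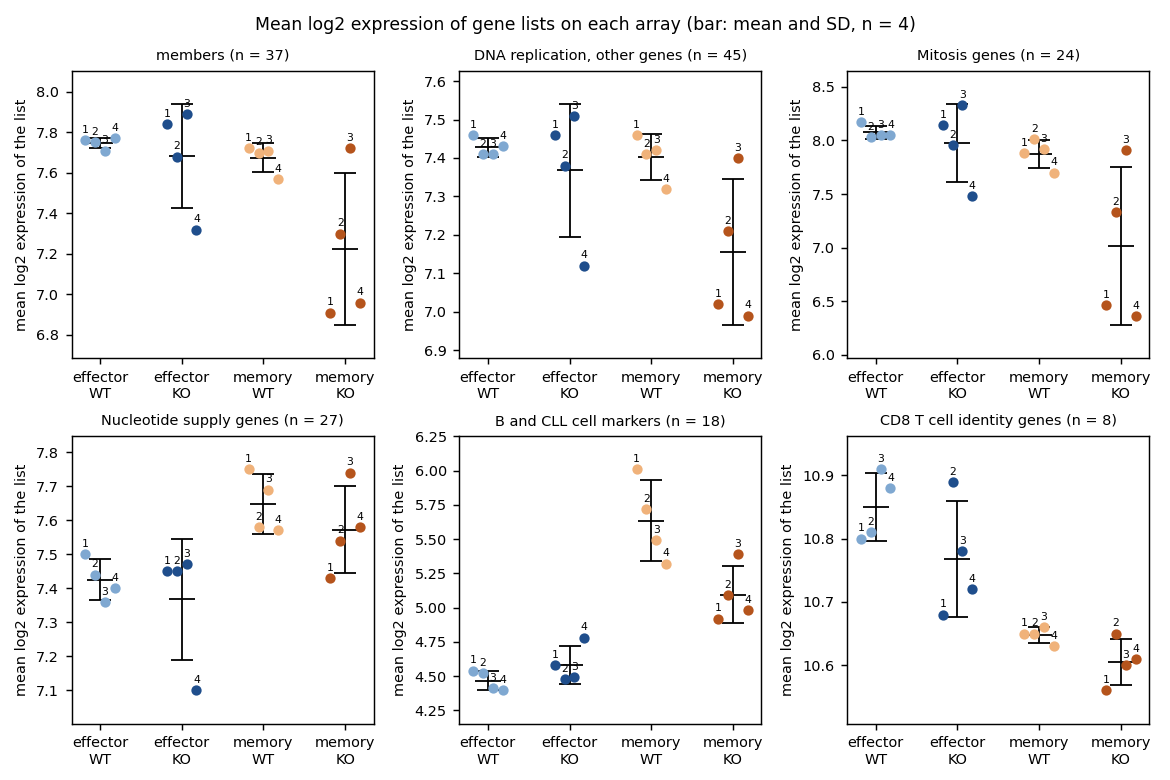
Each panel plots the mean log2 expression of a gene list on the 16 arrays, with the replicate number beside the point and bars for the mean and SD of 4 arrays. The replication genes, other replication genes and mitosis genes share the low readings of memory KO arrays 1, 2 and 4 and effector KO array 4. Nucleotide supply genes are also lowest on effector KO array 4, at 7.10, but 3 of the 4 memory KO arrays lie above every effector array, and B cell markers are lowest on effector arrays.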

How the data were processed

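RNA of sorted CD8 T cells was amplified from 1 ng with a pico-scale kit and hybridised to single-colour Affymetrix arrays, per the labels' protocols. The authors deposited 1 table with log2 values for 41345 probe sets on 16 arrays. That the scale is log2 was read from its range, 0.7365 to 14.0453. For background correction, normalization, software and genome build the answer is: not given in the sources used here. How the arrays were normalized bears on every difference, and amplification from so little RNA can widen the spread of dim genes. The deposited values were used without further scaling.

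Gene symbols came from the platform's probe table. A single symbol was listed for 23521 probe sets, several for 1814, and 16010 had no entry. Probe sets with 1 symbol were kept, with the brightest of a gene, giving 22180 genes. Group means of all 4 groups were fitted with limma 3.58.1 in R 4.3.3 (lmFit, eBayes), 7 differences were taken, and p-values were adjusted by Benjamini-Hochberg over all genes. The fit had 12 residual and 4.23 prior degrees of freedom. The arrays' number limits the precision. The procedure was checked on simulated data, drawn gene by gene with 1 spread per gene for all groups. That check does not cover groups whose spread differs. Promoter words were counted with Python 3.11.15 and pandas 2.3.3.

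The members and gene lists were chosen with earlier results of these data known. Values on every array are given for Mcm2 to Mcm7, Pcna, the member of each role with the lowest p in effector against memory averaged, and the 3 with the lowest p in each genotype comparison and the interaction. Cdc6, Tyms, Rrm2 and other members were named after their values were seen. Of the other lists, up to 4 genes with the lowest p in a comparison could be named, with the brightest marker and the lineage genes. The alternatives were quantile normalization, median centring, the mean of a gene's probe sets, a filter for genes above the array median on at least 4 arrays, a trended and robust variance prior, array weights, fits on the compared arrays only, 2 forms of a replicate block, and leaving out each array.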

Additional observations from a re-analysis of the deposited data

Results flagged for a closer look

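Each member named with its array values, and the mean of the members, was checked in each group for an array far from the other 3, by Dixon's criterion. Of 80 such checks 7 met it, and chance gives about 1 in 20. Array memory KO 3 stood above the rest of its group in Prim1, at 6.30 against 5.23 to 5.39, and in Gins1, at 6.68 against 5.24 to 5.39. Array effector KO 4 stood below its group in Gins1, at 5.42 against 6.31 to 6.42, and in Mcm4, at 7.95 against 8.77 to 8.83. Array memory WT 4 was low in the mean of the members, at 7.57 against 7.70 to 7.72, and in Cdc45, at 6.90 against 7.06 to 7.09. Array effector WT 4 was low in Mcm2, at 8.84 against 9.03 to 9.05. The causes were not tested.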

How the results depend on the processing

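The labels number the arrays of each group 1 to 4 without saying what a number shares. Same-numbered effector and memory arrays had correlated deviations over genes of 0.02, 0.12, 0.15 and 0.14 in KO and 0.09, 0.24, 0.14 and 0.13 in WT. Arrays with different numbers gave -0.15 to 0.07 in KO and -0.17 to 0.11 in WT. The same number gave the highest value for every number except KO 1. Not every pair passed 0.1, so the arrays were not treated as paired in the main fit. Whether same-numbered arrays share an animal was not tested. With the replicate block, 11 members and 8.15% of all genes passed in effector against memory in KO, and 9 members and 12.7% averaged over genotypes. Within genotype the block gave 10 members with 8.57% of all genes, and 9 members with 13.3%. Neither form changed the count of members called in another comparison.

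The median of KO minus WT in effector cells, -0.05, turned to 0.05 with array weights, and without 1 array it ran from -0.14 to 0.09. The medians of the other comparisons kept their sign in every fit run. The number of members called moved more. In effector against memory in KO it was 0 with only the compared arrays, 14 with array weights and 1 to 19 without 1 array. Of all genes 2.71%, 8.57% and 4.33% to 9.22% passed in these fits. In WT the members' count was 1 with array weights, beside 7.41% of all genes, and 2 with only the compared arrays, beside 5.95%. Averaged over genotypes the count was 7 to 17 without 1 array, beside 9.67% to 14.5% of all genes. In the other fits it was 8 to 10, beside 11.9% to 22.7%. In memory KO against WT the count was 0 to 10 without 1 array, beside 0.0496% to 1.12% of all genes. For KO against WT averaged over subsets it was 0 to 3, beside 0.104% to 1.48%. The fits on fewer arrays have fewer residual degrees of freedom. The main fit also takes 1 spread per gene over all 4 groups, though the spread of the members differed between groups. Their median SD was 0.10 in effector WT, 0.13 in memory WT, 0.28 in effector KO and 0.42 in memory KO. The part of this in the counts of KO and WT mice, and the cause of the other changes, was not tested. How far a reading lies above background could not be read from the deposited values.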

Other observations

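Genes that hold T cells in quiescence gave an order of groups unlike that of the replication genes. Of 19 measured inhibitors and quiescence genes, 7 fell and 2 rose in effector against memory cells averaged over genotypes. Of all genes 7.11% fell and 5.05% rose there. Foxp1, a forkhead factor of resting T cells, fell by 0.96 (SE 0.10, adjusted p = 1.23e-05), Klf2 by 1.10 (SE 0.17, adjusted p = 0.000387) and Tob1, an antiproliferative gene, by 0.71 (SE 0.09, adjusted p = 6.5e-05). Cdkn2c, a Cdk inhibitor, rose by 0.40 (SE 0.11, adjusted p = 0.0305). In memory KO against WT the median of this list was 0.14, with 13 positive signs and 0 calls by limma. The list means on memory KO arrays 1 to 4 were 6.81, 6.88, 6.89 and 6.86, a narrow span on the arrays where the mean of the replication genes ran from 6.91 to 7.72. Single genes of the list ran wider and in both directions. On these arrays Cdkn1a read 5.56, 6.82, 7.40 and 6.07, Cdkn2c 5.61, 6.07, 6.47 and 6.14, and Foxp1 8.62, 8.40, 8.03 and 8.43.

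Pold1, the catalytic subunit of the lagging strand polymerase delta, passed in KO against WT averaged over both subsets. It differed there by -0.64 (SE 0.11, adjusted p = 0.0183 by limma). Pold1 was the only call among the 45 genes of the wider replication list, where 0.113% of all genes passed lower. Its memory KO minus WT difference was -0.82 (SE 0.15), with an adjusted p of 0.052 by limma.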
